A study of Homo sapiens with 2 samples.

Results

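The genes of the AP-1 family of transcription factors are described here through the chromatin intervals that a sGCβ1 ChIP-seq library placed on them. The 10 members are FOS, FOSB, FOSL1, FOSL2, JUN, JUNB, JUND, ATF3, BATF and BATF3, chosen by name out of 20136 protein-coding genes. A member counted as carrying an interval when the authors' interval list assigned one to its symbol, and 6 of the 10 did, through 10 of the 4169 listed intervals. The other 4, FOSL2, JUNB, ATF3 and BATF3, were in no entry of the list.

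The ChIP library came from U-87 MG cells, an established malignant glioma line, made to overexpress sGCβ1, and it was precipitated with an antibody against that subunit. An input library of the same overexpressing cells, without antibody, is the only other sample, and no file of it was used here. sGCβ1, encoded by GUCY1B3, is the haem-binding subunit of soluble guanylate cyclase, the enzyme that answers nitric oxide by producing cyclic GMP. Both samples carry the overexpression, so neither shows where the antibody recovers DNA at native levels of the subunit. There is 1 ChIP library and no replicate, so no value below has a replicate error and no test was made. No source used here states how many reads were sequenced, and the depth behind an interval is unknown. A ChIP library measures no RNA, so the identity of the cells and the activity of the genes could not be checked from it.

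AP-1 is a dimer of basic leucine zipper proteins. Jun proteins (JUN, JUNB, JUND) pair with each other or with Fos proteins (FOS, FOSB, FOSL1, FOSL2), while Fos proteins need a partner, and ATF3, BATF and BATF3 join the same network. The dimers recognise the letters TGACTCA and close variants, and several of the genes, FOS and JUN first among them, are immediate early genes that growth factors and stress switch on through MAP kinases. FOSL1 is a known part of the mesenchymal programme of glioma cells.

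Intervals are described by their height, the authors' signal at the summit, given as a whole number. Over all 4169 intervals the height had a median of 14, quartiles of 12 and 18, and a maximum of 263. The MACS score is minus 10 times log10 of the caller's p-value, with a median of 99.2 over all intervals. Distances are from the deposited summit to the gene start used by the authors, and negative distances are upstream. Of all summits, 72.6% lay on multiples of 32 bp, so a distance of a few bp is finer than the data resolve.

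Sequences from within the members' intervals are shown first, read from GRCh37, the build of the list, in the direction of the named gene unless stated. For FOS and JUN they show promoter elements beside the summit, and for FOSL1 and BATF the AP-1 site letters inside the intervals. That for FOSB shows the tRNA-type element beside its summit. Stretches at gene starts leave out bases that GENCODE annotates as untranslated, apart from the short FOSL1 first exon site.
FOS promoter, chr14:75745194-75745480, plus strand, capitals for the CArG box and a GC box: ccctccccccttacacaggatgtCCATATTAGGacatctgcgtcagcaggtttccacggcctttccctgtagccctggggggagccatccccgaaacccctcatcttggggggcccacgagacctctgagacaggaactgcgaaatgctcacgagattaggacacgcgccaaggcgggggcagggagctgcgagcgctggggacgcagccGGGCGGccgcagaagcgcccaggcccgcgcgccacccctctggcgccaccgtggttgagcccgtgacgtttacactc
JUN promoter, chr1:59249721-59249910, minus strand, capitals for GC boxes, a CCAAT box and the element TGACATCA: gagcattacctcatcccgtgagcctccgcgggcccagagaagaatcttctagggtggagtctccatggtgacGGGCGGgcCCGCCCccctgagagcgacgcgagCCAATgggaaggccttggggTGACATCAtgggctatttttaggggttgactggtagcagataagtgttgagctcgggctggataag
FOSL1 first exon site, chr11:65667843-65667871, minus strand, capitals for the AP-1 site: cacggcgcgggTGAGTCAgaacccagcag
FOSL1 upstream pair of sites, chr11:65679026-65679114, minus strand, capitals for the AP-1 sites: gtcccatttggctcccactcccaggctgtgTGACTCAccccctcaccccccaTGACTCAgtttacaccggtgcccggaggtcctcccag
BATF intron, chr14:76002283-76002409, plus strand, capitals for the AP-1 site: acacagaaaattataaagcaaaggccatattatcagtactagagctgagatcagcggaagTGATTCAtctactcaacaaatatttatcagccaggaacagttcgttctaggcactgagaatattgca
Summit downstream of FOSB, chr19:45981759-45981993, minus strand (opposite to FOSB), capitals for the B box: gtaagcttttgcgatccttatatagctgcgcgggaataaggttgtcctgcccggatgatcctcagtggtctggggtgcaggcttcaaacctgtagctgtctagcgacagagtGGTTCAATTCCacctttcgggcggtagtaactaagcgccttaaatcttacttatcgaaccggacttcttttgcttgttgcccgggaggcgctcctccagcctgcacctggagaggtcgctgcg

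Intervals were assigned to more of the AP-1 genes than of all protein-coding genes. The share was 60% of the 10 members (95% Clopper-Pearson interval 26.2 to 87.8, counting error only) and 15.3% of the 20136 protein-coding genes. With the summit within 1000 bp of the gene start, 3 members (FOS, FOSL1 and JUN) carried an interval, 30% of the 10 (6.67 to 65.2), against 6.85% of all protein-coding genes. Among the 10 members 2, FOS and FOSB, had an interval of height 40 or more, against 1.91% of all protein-coding genes, but only that of FOS lay within 1000 bp of the member's own start, against 1.04%. At or above the list's median score, 5 members carried an interval, or 50%, against 8.74% of all protein-coding genes. The members were named with earlier results of these data known, so these shares describe the 10 genes and are no evidence about the family.

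**Figure D1:**
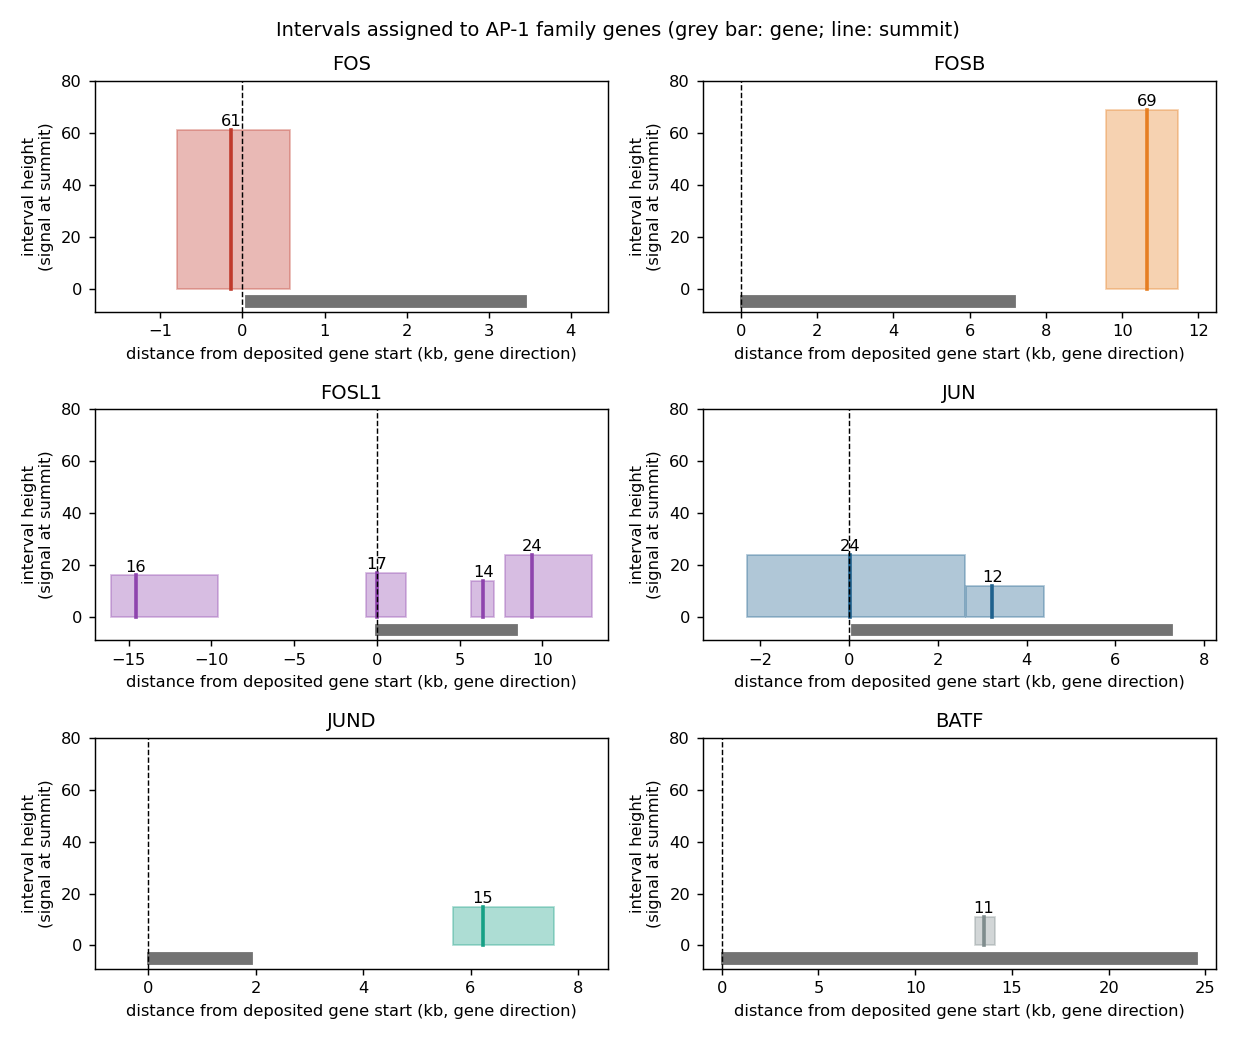
Intervals assigned to the 6 AP-1 genes that carried one, with the distance from the deposited gene start in kb on the x axis and the interval height on the y axis. Coloured boxes span the intervals, the line in each is the summit with its height printed, grey bars are the genes as GENCODE annotates them, and the dashed line is the gene start. FOS, JUN and FOSL1 have a summit at the start, with heights of 61, 24 and 17, and the summits of FOSB, JUND and BATF lie away from it.

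FOS, the founding Fos gene and the partner of JUN in the classical dimer, had the tallest interval at any member's own start. On hg19 it ran on chromosome 14 from 75744682 to 75746064, a length of 1382 bp, with a height of 61 and a MACS score of 236.95. Its summit was at -137 bp by the authors' gene start and at -187 bp from the start of the GENCODE canonical transcript, in no annotated exon. The gene itself spans 75745529 to 75748933 on the plus strand (ENSG00000170345). Only 6.52% of all intervals were as tall or taller, and 93.5% were lower. The interval overlapped 1 CpG island in the authors' count and was also assigned to LOC100287415, at 1487 bp.

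The FOS interval was also the most sharply peaked of the 10. Its height was 4.23 times its mean signal of 14.4, where this ratio had a median of 2.00 over all intervals, with quartiles of 1.78 and 2.33. The DNA around its summit held the letters CCATATTAGG, a match to the CArG box that serum response factor binds, centred 122 bp upstream of the summit. A CArG box within 150 bp of the summit was found in 1.34% of all intervals and in 1.29% of those at promoters. It was found in 1 of the 10 member intervals, that of FOS. A GC box was centred at 62 bp from the FOS summit, while no match to TGANTCA, the letters searched as AP-1 site, lay in the interval. Looser variants of these letters were not searched for, so their absence is not shown.

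FOSB, a second Fos gene induced by growth factors, was assigned the tallest interval of the family, but that interval lay beyond the far end of the gene. It ran on chromosome 19 from 45980826 to 45982716 (1890 bp), with a height of 69, a mean signal of 19.4 and a MACS score of 789.1. In height 94.4% of all intervals were lower. Its summit was 10656 bp from the FOSB start and 3472 bp past the gene's end, FOSB spanning 45971253 to 45978437 on the plus strand. The authors' list also gave the interval to RTN2, at 18404 bp. In GENCODE the summit lay in an intron of ERCC1, a DNA repair gene, 177 bp from that gene's nearest start.

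The element nearest the FOSB-assigned summit was of the tRNA type. The letters GGTTCAATTCC, a match to the B box that recruits RNA polymerase III inside tRNA genes, were centred at -33 bp from the summit, on the strand opposite to FOSB. RefSeq, on GRCh38, lists TRU-TCA1-1, a selenocysteine tRNA gene, directly after FOSB and before RTN2, though the list names no tRNA gene. A B box, on either strand, stood within 150 bp of the summit in 234 intervals, 5.61% of all. Those 234 had a median height of 64, against 14 for all 4169. A height of 40 was reached by 174 of the 234 (74.4%) and by 411 of all 4169. Of those 411, 42.3% had a B box in that window. At FOSB's own start no interval was listed, the nearest summit being this one. No CpG island overlapped it, and the AP-1 site match nearest to the summit was centred at 214 bp.

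FOSL1, which encodes the Fos protein Fra-1, had 4 intervals, the most of any member. At least 4 intervals were assigned to 0.184% of all protein-coding genes, and at least 2 to 2.44%. Of the members, FOSL1 reached 4, and FOSL1 and JUN reached 2. The gene spans 65659520 to 65668044 on chromosome 11, minus strand. Heights were 16 at -14563 bp, 17 at -3 bp, 14 at 6429 bp and 24 at 9373 bp, so the interval at the start was not the highest.

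Of the 4 FOSL1 intervals, 3 were also assigned to CCDC85B. The one at the start (65666269 to 65668675, 2406 bp, score 118.33) overlapped 1 CpG island and lay 10125 bp from the CCDC85B start. An AP-1 site, TGAGTCA, was centred 143 bp downstream of its summit, where it spanned the first base of the GENCODE canonical transcript at 65667859. The one at 6429 bp (65660949 to 65662333, score 71.05) had its summit in a FOSL1 exon and lay just above the lowest score in the list, 70. It was also assigned to CTSW and FIBP.

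The tallest FOSL1 interval, at 9373 bp, was nearer another gene. It ran from 65655028 to 65660269 (5241 bp, score 378.23) and its summit was in the exon of CCDC85B, 480 bp from that gene's start and 896 bp past the end of FOSL1. It overlapped 2 CpG islands and was also assigned to CTSW and FIBP. GC boxes numbered 15 over the whole interval and AP-1 sites 0.

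The interval upstream of FOSL1 was the longest of the family. It ran from 65677605 to 65684058, or 6453 bp, with a score of 74.2, and was also assigned to C11orf68 and DRAP1. Its summit lay in no protein-coding gene. The interval held 6 AP-1 sites, none of them within 300 bp of the summit, and in the pair printed above the sites started 22 bp apart. Per length this came to 0.930 sites per kb, against 0.831 in the interval at the start.

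FOSL2, the gene of the Fos protein Fra-2, carried no interval. The summit nearest to its canonical start was 438 kb away, assigned to BRE with a height of 15, and 29.8% of protein-coding genes were farther from any summit. The median distance over 19856 genes with an annotated start was 179 kb.

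JUN, the central Jun gene, had an interval across its start and a second one directly beside it over its 3' part. The first ran on chromosome 1 from 59247165 to 59252080 (4915 bp), with a height of 24, a mean signal of 9.93 and a MACS score of 360.6. Its summit lay 25 bp inside the gene by the authors' start and 41 bp upstream of the GENCODE canonical start. The second ran from 59245404 to 59247154 (1750 bp), with a height of 12 and a score of 73.74, its summit at 3225 bp in the untranslated end of JUN. The gap between them was 11 bp, and both were also assigned to LOC100131060. Apart from that gap they spanned the GENCODE canonical transcript, which starts at 59249719 on the minus strand.

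Several known elements of the JUN promoter stood beside the summit at its start. Within 150 bp there were a pair of GC boxes, at -68 and -76 bp from the summit, a CCAAT box at -44 bp and the element TGACATCA at -22 bp. That element, through which JUN is known to respond to AP-1 and ATF dimers, differs from the TGANTCA searched as AP-1 site. It was added to the search after the sequence had been seen. It occurred within 150 bp of the summit in 2.11% of all intervals and in 1.22% of those at promoters. The AP-1 site itself was absent from this window, and the match nearest to the summit in the interval was centred at -2010 bp.

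JUND, the most constantly expressed Jun gene, was assigned 1 interval, which lay closer to a neighbour. It ran on chromosome 19 from 18384872 to 18386762 (1890 bp), with a height of 15 and a MACS score of 165.55. The summit was 6224 bp from the JUND start, 4296 bp past its end (the gene spans 18390504 to 18392432, minus strand), and 898 bp from the start of IQCN, listed as KIAA1683. MIR3188 was assigned to it as well. AP-1 sites were centred at 385 and 924 bp from the summit.

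JUNB, a Jun gene induced early after stimulation, had no interval. The nearest summit was 54.1 kb from its start, with a height of 19 and a score of 70.74, assigned to C19orf43 and ASNA1. Within 300 kb of the JUNB start there were 4 summits, all assigned to other genes.

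Of the ATF and BATF members, BATF alone carried an interval. BATF, a factor best known from lymphocytes, had the lowest interval of the family, on chromosome 14 from 76001865 to 76002903 (1038 bp), with a height of 11 and a score of 77.55. Its summit lay 13552 bp into the gene in an intron and was assigned to no other gene. Of all intervals, 5.30% were lower. This was the member interval whose summit had a match to TGANTCA closest to it, the letters TGATTCA centred at 10 bp. These letters differ from TGACTCA, read on either strand, at the central position.

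ATF3, a stress-induced factor, and BATF3, known from dendritic cells, lie near each other on chromosome 1 and shared an empty stretch. Their nearest summit was the same one, of height 14 and with no gene assigned, at 1973 kb from the ATF3 start and at 1882 kb from that of BATF3. Only 7.46% and 7.94% of protein-coding genes were farther from a summit than ATF3 and BATF3. No summit lay within 300 kb of either gene, or of FOSL2, as for 38.2% of protein-coding genes.

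**Figure D2:**
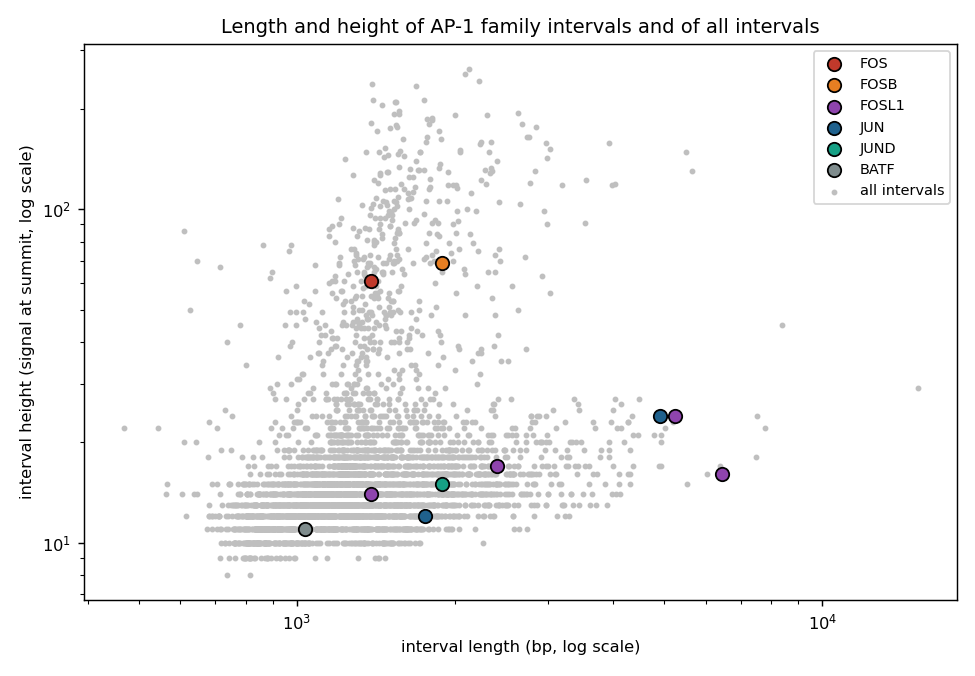
Length (x axis, bp) against height (y axis, signal at the summit) of every interval, both on log scales, with the 10 AP-1 family intervals coloured by gene and all 4169 intervals in grey. FOS and FOSB sit in the tall group at heights of 61 and 69, while the longest JUN and FOSL1 intervals, of 4915 to 6453 bp, sit at heights of 16 to 24.

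The member intervals varied widely in height and length. The intervals of FOS and FOSB, the tallest of the 10, had lengths of 1382 and 1890 bp. Those of JUN at its start and of FOSL1 at 9373 and -14563 bp ranked 18, 12 and 6 in length among the 4169 intervals, whose median length was 1296 bp. Their heights of 24, 24 and 16 compare with a median of 22 over the 18 longest intervals. The scores of 360.6 for JUN and 378.23 for FOSL1 at 9373 bp exceeded that of the taller FOS interval, 236.95. Over all 10, the median height was 16.5, against 14 in the whole list, and the median length was 1890 bp, against 1296 bp.

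Most of these intervals were shared with other genes. Of the 10, 9 were also assigned to at least 1 other gene, that of BATF being the exception, against 35.2% of the 3033 intervals in the list that had any gene. By the nearest protein-coding start, 4 members, FOS, FOSL1, JUN and BATF, owned at least 1 summit. The share of all protein-coding genes by this rule was not computed, and the 15.3% given for assigned intervals is no measure of it. The intervals given to FOSB and JUND, and the 3 of FOSL1 away from its start, were nearer the start of another gene.

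The members with and without an interval at their start had overlapping base composition there. Over 300 bases around the GENCODE canonical start, the promoters of FOS, FOSL1 and JUN had a GC content of 64.7%, 70.3% and 62.0% and held 30, 34 and 16 CpG dinucleotides. The promoters of the other 7 members had a GC content from 46.0% (BATF) to 78.3% (BATF3) and from 7 to 49 CpG, with JUND at 77.0% and 49. Over all protein-coding genes the medians were 63.7% and 23, and over those with an interval within 1000 bp of their start 64.3% and 27. JUND and BATF3 were richer in CpG than FOS and JUN and had no interval at their starts. Over all protein-coding genes, the ratio of observed to expected CpG had a median of 0.884 in promoters with such an interval. In those without, it was 0.764. A link between CpG content and intervals was not tested.

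The letters that AP-1 proteins read were also searched for around the summits at their own genes. TGANTCA, searched on both strands within 150 bp of the summit, was found in 2 of the 10 member intervals, those of BATF and of the FOSL1 start. Within 100 bp it was found in 1 of the 10, that of BATF, against 20.2% of all intervals. Over all intervals the share within 150 bp was 27.6%, made up of 6.76% of those at promoters and 38.0% of the others. By the same classes, 6 of the 10 member intervals were at a promoter and 4 were not. Over whole intervals, which differ in length, the letters were in 7 of the 10, against 57.8% of all. TGANTCA also takes in matches with A or T at the centre, which differ from TGACTCA on either strand and were not counted apart. The FOSL1 match near the start was TGAGTCA, while the matches of BATF, FOSB and the JUN start interval had A or T there. The cyclic AMP element TGACGTCA and the E-box CACGTG were found in 0 of the 10, against 1.30% and 9.28% of all intervals. Only these exact letters were searched for, so variants are not shown to be absent. The FOS sequence printed above holds tgacgttt, which differs from TGACGTCA in its last letters. GC boxes (GGGCGG) stood in 5 of the 10, against 23.4% of all, 53.1% of those at promoters and 8.57% of the others, and CCAAT in 3 of the 10, against 32.0%. None of these motifs contains another, and a match is a description of the sequence, not of a bound factor.

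**Figure D3:**
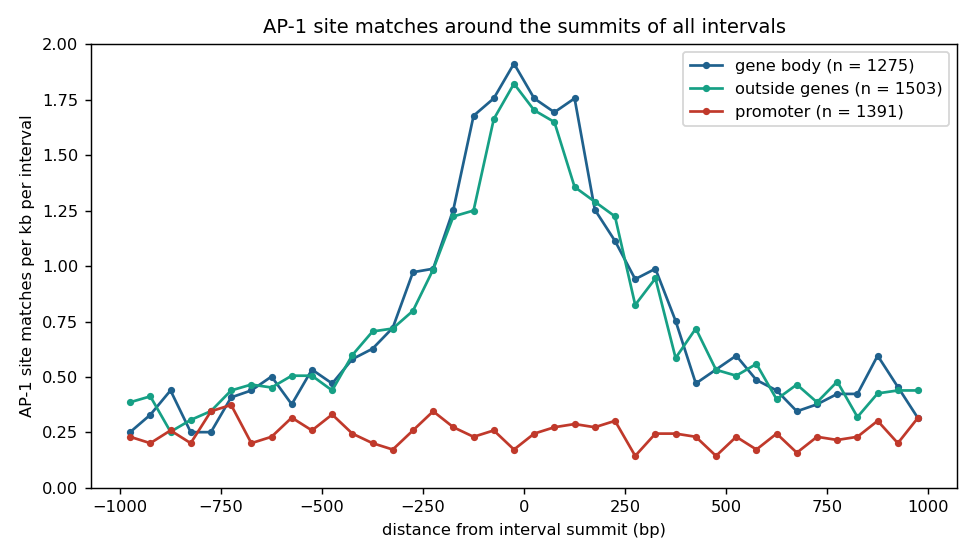
Matches to the AP-1 site per kb and interval (y axis) in bins of 50 bp by distance from the summit (x axis, bp), over all intervals in gene bodies, outside genes and at promoters. Matches peak at the summit in gene bodies and outside genes, where 29.4% and 27.2% of intervals hold one within 100 bp, and stay flat at promoters, where 4.31% do.

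Away from promoters, AP-1 sites gathered at the summits of the list as a whole. Within 100 bp of the summit, 29.4% of the 1275 gene-body intervals held one (95% interval 26.9 to 32.0), against 8.67% (7.60 to 9.83) of windows of the same length centred 600 bp to either side. Outside genes the shares were 27.2% and 8.65%. At the 1391 promoter intervals they were 4.31% (3.31 to 5.52) and 4.17% (3.46 to 4.98). The BATF interval, in an intron with its match at 10 bp, was of the gene-body kind, and the FOS and JUN promoter intervals, with no match in the window, were like most promoter intervals. A base composition that differs between summits and flanks was not accounted for.

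**Figure D4:**
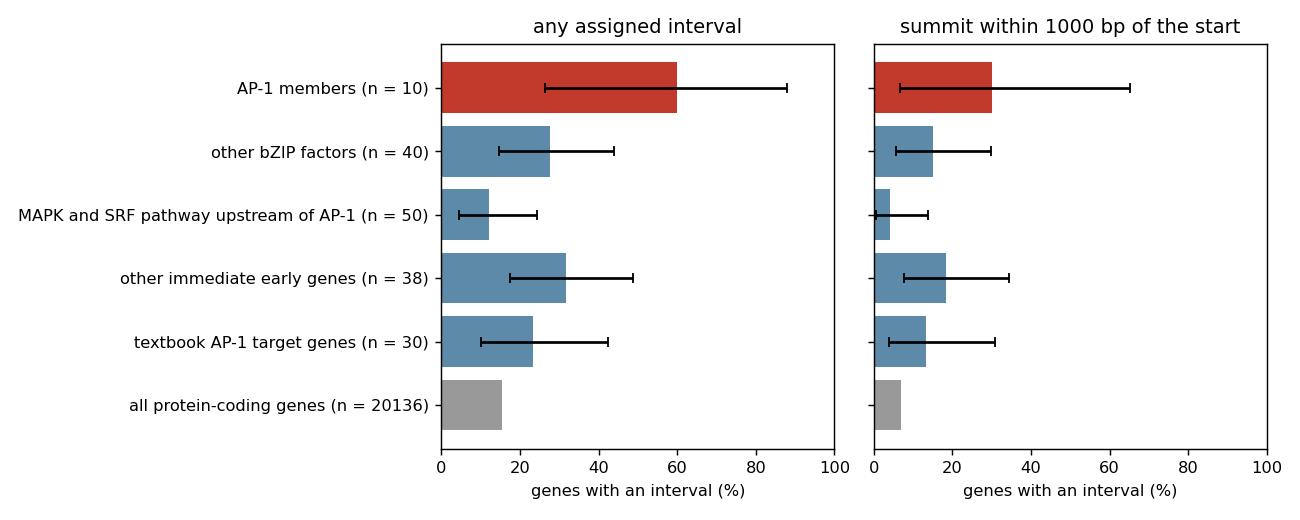
Percentage of genes with any assigned interval (left) and with a summit within 1000 bp of the start (right), for the 10 AP-1 genes, the 4 related lists and all protein-coding genes, with the number of genes in brackets. Error bars are 95% Clopper-Pearson intervals. The AP-1 genes stand at 60% and 30% and all protein-coding genes at 15.3% and 6.85%.

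Other leucine zipper genes, 40 in number, carried intervals in 11 cases (27.5%, 14.6 to 43.9) and within 1000 bp of the start in 6 (15%). Over all protein-coding genes the shares were 15.3% and 6.85%. No leucine zipper gene of this list reached a height of 40, against 1.91% of all protein-coding genes. The tallest belonged to ATF7 (22, at 199 bp), which binds cyclic AMP elements, and CREB3L2 (21 at both 71230 and 222 bp, out of 5 intervals in that gene). ATF4, the factor of the integrated stress response, had one of 15 at -153 bp, and NFE2L1, which controls proteasome genes, one of 13 at 170 bp. ATF5 had one of 14 at 745 bp and CREB3 one of 14 at 35 bp, by the authors' starts. By GENCODE starts, those nearest to these summits were NUP62 for ATF5, at 12 bp, and TLN1 for CREB3, at 160 bp. BACH1 (15, at 33676 bp) and NFE2L3 (14, at 3577 bp) had theirs inside the gene.

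The kinases and regulators upstream of AP-1 stood near the genome-wide share. Of these 50 genes, 6 had an interval (12%, 4.53 to 24.3), against 15.3% of all protein-coding genes. Within 1000 bp of the start 2 had one (4%), against 6.85%. The 2 were NRAS (13, at 171 bp), a GTPase that opens the kinase cascade, and DUSP4 (15, at 185 bp), a phosphatase that closes it. DUSP1, another such phosphatase, had a tallest interval of 15 just outside the window, at -1029 bp. EGFR had one of 15 at 54267 bp and MRTFB, a coactivator of serum response factor listed as MKL2, one of 16 at 110836 bp.

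Among 38 other immediate early genes, 12 had an interval (31.6%, 17.5 to 48.7), against 15.3% of all protein-coding genes. Within 1000 bp of the start 7 had one (18.4%), against 6.85%. A height of 40 was reached by intervals of ZFP36 (92, at 5361 bp) and NR4A1 (40, at 18393 bp), 5.26% of the list against 1.91%. Both intervals lay nearer another start, that of PLEKHG2 and that of ATG101. No gene of this list had one of height 40 within 1000 bp of its own start, which FOS did. Over all protein-coding genes that share was 1.04%, so none among these 38 is close to it. At own starts as the authors give them, heights were 17 for ZFP36L1 (-279 bp), 16 for CCN2, listed as CTGF (774 bp), 15 for ID3 (402 bp) and 14 for PLK2 (-679 bp). IER2 had one of 14 at 1646 bp and SGK1 one of 14 at 143676 bp by the authors' starts, and in GENCODE these summits were 139 and 482 bp from a start of the same gene.

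Of 30 textbook target genes of AP-1, 7 carried an interval (23.3%, 9.93 to 42.3), 4 of them within 1000 bp of the start (13.3%). Over all protein-coding genes the shares were 15.3% and 6.85%. HMOX1, the haem oxygenase gene, had one of 19 at -4 bp. NQO1 had one of 14 at 213 bp and PLAUR, the urokinase receptor, one of 12 at 283 bp. HBEGF, an EGFR ligand, had 2, both of height 14, at 23468 and 268 bp. PLAU, the urokinase gene with a known upstream AP-1 enhancer, had one of 20 at -1806 bp by the authors' start and 121 bp from the nearest PLAU start in GENCODE. CD44 (15, at 27903 bp) and MT2A (15, at 1938 bp) completed the list.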

How the data were processed

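The members and gene lists were chosen with earlier results of these data known. The design text states that BWA, with its defaults, mapped 75-nt reads to hg19, that purity-filtered unique reads with at most 2 mismatches were kept, and that MACS called the intervals. Versions and the role of the input as control are not stated there. Per the file headers, the deposited list of the ChIP library gives a peak value (a signal, called height here), an average signal, a MACS score (lowest 70), CpG island counts and assigned genes. How the signal was scaled is not stated.

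Members were matched in the list's gene field. Coordinates are the list's; gene positions came from GENCODE 44 mapped to GRCh37, the same build. For the share of all protein-coding genes, 84.1% of 3677 listed symbols matched one, older symbols through RefSeq. Sequences were read with pysam 0.24.0 and searched by letter patterns, a search tested on simulated sequences. For AP-1 site shares, the promoter class held summits up to 1000 bp from any start of a protein-coding transcript. Promoter composition used 250 bp upstream of the start and 50 bp from it. Intervals on shares are exact Clopper-Pearson (scipy 1.17.1). Named are all members, genes sharing their intervals or lying at their summits, and up to 8 genes per list by height. The B box and TGACATCA searches were added after seeing the data. Some listed genes and sequences are not reported here.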

Additional observations from a re-analysis of the deposited data

How the results depend on the processing

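With only intervals at or above the median score, 5 members carried an interval and 3 one at the start; at the upper quartile of score these were 5 and 2, and at the median height 5 and 3. Counting summits inside a gene or within 10000 bp gave 6 members, and the nearest start gave 4. The count at the start was 3 with windows of 500 and 5000 bp, also when any overlap or the start of any transcript counted. The count of members with a height of 40 or more was 2 at thresholds of 30 and 60 also, and 1 without intervals that hold a B box, an alternative chosen after seeing the data, which drops that of FOSB. Among these alternatives, the share of all protein-coding genes was computed only for any interval at or above the median score, 8.74%. The other counts have no such share beside them, so they do not show whether the difference from all genes holds.

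Ranking by MACS score in place of height, the percentage of intervals below the tallest one of each member was 18.2 for BATF, 87.7 for FOS, 91.3 for FOSL1, 90.9 for JUN and 81.1 for JUND. Ranking by average signal it was 7.08, 92.0, 86.2, 86.0 and 68.6 in the same order, against 5.30, 93.5, 84.7, 84.7 and 50.8 by height, and for FOSB it was within counting error. At or above the median score, 5 of the 40 other leucine zipper genes (12.5%) and 4 of the 30 target genes (13.3%) carried an interval. The share of all protein-coding genes at that score was 8.74%. AP-1 sites were in 20.2% of all intervals within 100 bp of the summit, 11.2% within 50 bp, 38.0% within 250 bp and 17.4% at or above the median score. Of the 10 member intervals, 1 held an AP-1 site within 100 bp, 1 within 50 bp and 3 within 250 bp. Over the 10 whole member intervals, AP-1 sites were in 7, E-boxes in 2, GC boxes in 8 and CCAAT in 10. Over all whole intervals the shares were 57.8%, 23.2%, 46.5% and 81.5%. Within 300 bp, CCAAT was in 7, against 54.2% of all intervals. Wider windows hold more matches by construction; the cause of the other changes was not tested. No paired analysis was possible because there is 1 ChIP library. Without read totals, the effect of depth was not examined.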
